A study of Mus musculus with 24 samples.

Results

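The genes described here are 10 molecular chaperones and stress factors of the mouse striatum: the cytosolic HSP70 and HSP110 genes Hspa8, Hspa1a, Hspa1b and Hsph1, the J protein gene Dnajb1, the cytosolic HSP90 genes Hsp90aa1 and Hsp90ab1, the endoplasmic reticulum (ER) chaperones Hspa5 and Hsp90b1, and the transcription factor gene Xbp1. They were picked by symbol as a functional group, and all 10 were found among the 37289 genes of the RNA files. The series measured RNA and 5-hydroxymethylcytosine in striatum of C57BL/6 mice labelled female, either wild type or heterozygous for Cntnap2, which encodes a neuronal cell adhesion protein of the neurexin family. Mothers carrying embryos of both genotypes were stressed variably for 7 days beginning at embryonic day 12.5, or were left alone. RNA came from 12 mice in 4 groups of 3, named here wild-type control, het control (Heterozygous, not stressed), wild-type stressed and het stressed. All mice were ear-tagged on postnatal day 12 and weaned on day 18. The labels give no age at collection and no litter, and tissue was taken 2 hours after lights on as a micropunch of about 30 mg. The punch is bulk tissue, so fewer cells of a type and less RNA per cell cannot be told apart. Each replicate is a different mouse, and the labels do not say whether littermates fall in the same group. The p-values therefore cover the variation among these particular animals.

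HSP70 proteins bind exposed hydrophobic stretches of unfolded proteins and release them in cycles of ATP use; J proteins deliver the client and start the cycle, and HSP110 proteins help to reset it by exchanging the nucleotide. HSP90 proteins act later, on partly folded clients such as kinases and steroid receptors. In the cytosol, misfolded protein frees the transcription factor HSF1, which switches on Hspa1a, Hspa1b, Dnajb1 and Hsph1, while Hspa8 and Hsp90ab1 are the constitutive forms. In the ER, misfolded protein activates the unfolded protein response, in which IRE1 splices the Xbp1 messenger and XBP1 and ATF6 raise Hspa5 (BiP) and Hsp90b1 (GRP94).

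Libraries held 13587154 to 24039706 expected counts, and each het library (21410135 or more) was deeper than each wild-type library (18538304 or fewer), so that depth and genotype cannot be told apart. All 14 medium spiny neuron markers were above 0 in all 12 libraries, with summed levels of 3954 to 9067 TPM (the length-normalised unit of transcript abundance). The level of Cntnap2 was 36.0 to 59.5 TPM in het and 39.7 to 68.3 TPM in wild-type libraries, and these ranges overlapped. The second wild-type stressed library had 1.32 TPM of Xist, the RNA of the inactive X chromosome, against 23.1 to 109 TPM in the other 11, which goes against its label as female. The Y-linked genes Ddx3y, Uty, Eif2s3y and Kdm5d had no match among the gene symbols, so this doubt rests on Xist alone. For the first het control, the label names animal 47 and the RNA file animal 48. Libraries also differed in how their counts depended on transcript length. This length slope (change in a gene's log2 deviation from its mean per doubling of length) was lowest in the first het control (-0.368) and the first wild-type control (-0.298), highest in the third wild-type stressed (0.294) and the third wild-type control (0.278), and between -0.0835 and 0.14 elsewhere.

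Upstream sequences are shown for 5 of the genes, because the results below turn on how Hspa5 varies with Xbp1 and Hsp90b1 and on how Hspa1a compares with Hspa1b. RefSeq (build GRCm38.p6) gave promoter entries for 7 of the 10 genes, and Hspa8, Hsp90aa1 and Hsp90ab1 were not among them. Each run holds the 250 bases before the start of transcription, 5′ to 3′ on the gene's strand, and capitals mark the ER stress response element, the site through which ATF6 and XBP1 act on ER chaperone genes.
Hspa5 (chr2:34771840-34772089, plus strand): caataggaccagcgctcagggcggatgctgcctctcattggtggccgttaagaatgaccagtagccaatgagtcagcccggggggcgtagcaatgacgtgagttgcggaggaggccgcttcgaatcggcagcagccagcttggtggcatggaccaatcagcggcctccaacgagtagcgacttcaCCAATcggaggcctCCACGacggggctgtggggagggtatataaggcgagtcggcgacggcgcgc
Hsp90b1 (chr10:86705445-86705694, minus strand): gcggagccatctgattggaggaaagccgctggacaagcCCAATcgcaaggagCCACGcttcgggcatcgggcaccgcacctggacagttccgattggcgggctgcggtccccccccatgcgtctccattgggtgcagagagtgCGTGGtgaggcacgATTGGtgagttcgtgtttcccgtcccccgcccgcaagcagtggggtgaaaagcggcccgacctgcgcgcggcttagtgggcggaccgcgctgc
Xbp1 (chr11:5520391-5520640, plus strand): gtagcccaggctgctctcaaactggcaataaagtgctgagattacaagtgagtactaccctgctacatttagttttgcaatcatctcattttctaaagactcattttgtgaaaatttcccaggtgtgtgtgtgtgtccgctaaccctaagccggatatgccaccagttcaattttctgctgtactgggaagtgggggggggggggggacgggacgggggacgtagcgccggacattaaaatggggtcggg
The element, searched on both strands as CCAAT and CCACG with any 9 bases between them, occurred 1 time before Hspa5, 65 to 47 bases upstream of the start. It occurred 2 times before Hsp90b1, at 212 to 194 bases on the gene's strand and at 107 to 89 bases on the opposite strand. The Xbp1 window held no match. Among all 32851 RefSeq promoter windows of this length, 37 (0.113%) had one. Neither the heat shock element in its 3-unit form, GAA, TTC and GAA with any 2 bases between units (0.466% of windows) nor the unfolded protein response core TGACGTGG (0.563%) had a match in any window of the 7 genes.

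Hspa1a and Hspa1b, the stress-inducible HSP70 genes, lie next to each other as near-identical copies. Their upstream windows are shown with the differing bases in capitals.
Hspa1a (chr17:34972157-34972406, minus strand): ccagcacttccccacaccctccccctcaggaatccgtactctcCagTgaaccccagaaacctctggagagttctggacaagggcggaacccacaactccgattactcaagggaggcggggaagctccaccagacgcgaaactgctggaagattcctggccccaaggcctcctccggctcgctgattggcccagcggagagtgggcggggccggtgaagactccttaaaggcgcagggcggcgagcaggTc
Hspa1b (chr17:34959239-34959488, minus strand): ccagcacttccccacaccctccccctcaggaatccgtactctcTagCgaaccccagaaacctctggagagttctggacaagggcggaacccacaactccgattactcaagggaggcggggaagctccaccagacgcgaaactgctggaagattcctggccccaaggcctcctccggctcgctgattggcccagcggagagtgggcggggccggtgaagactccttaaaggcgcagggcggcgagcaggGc
Of 250 positions, 247 (98.8%) were identical. The differences, counted from the first base of the window with the Hspa1a base first, were C44T, T47C and T249G. The coding sequences of both genes are also nearly the same, so how the counting divided reads between them is uncertain, and their sum is given beside the separate values.

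The 10 genes spanned a wide range of levels, with Hspa8 and the cytosolic HSP90 genes highest and the inducible HSP70 copies lowest. Averaged over the 12 libraries, Hspa8 was at 2274 ± 380 TPM (SD, n = 12), Hsp90ab1 at 903 ± 175 TPM and Hsp90aa1 at 467 ± 108 TPM. Hspa5 followed with 230 ± 46.8 TPM and Hsp90b1 with 152 ± 40.5 TPM. Hsph1 (117 ± 32.7 TPM) and Xbp1 (115 ± 14.5 TPM) could not be ordered, since Hsph1 was the higher in 6 of 12 libraries. Dnajb1 was at 50.0 ± 6.95 TPM. The inducible copies were lowest, Hspa1b at 7.44 ± 3.93 TPM and Hspa1a at 4.52 ± 1.93 TPM, and Hspa1b was the higher in 10 of 12 libraries. Every other neighbouring pair in this order had the same order in 12 of 12 libraries.

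**Figure D1:**
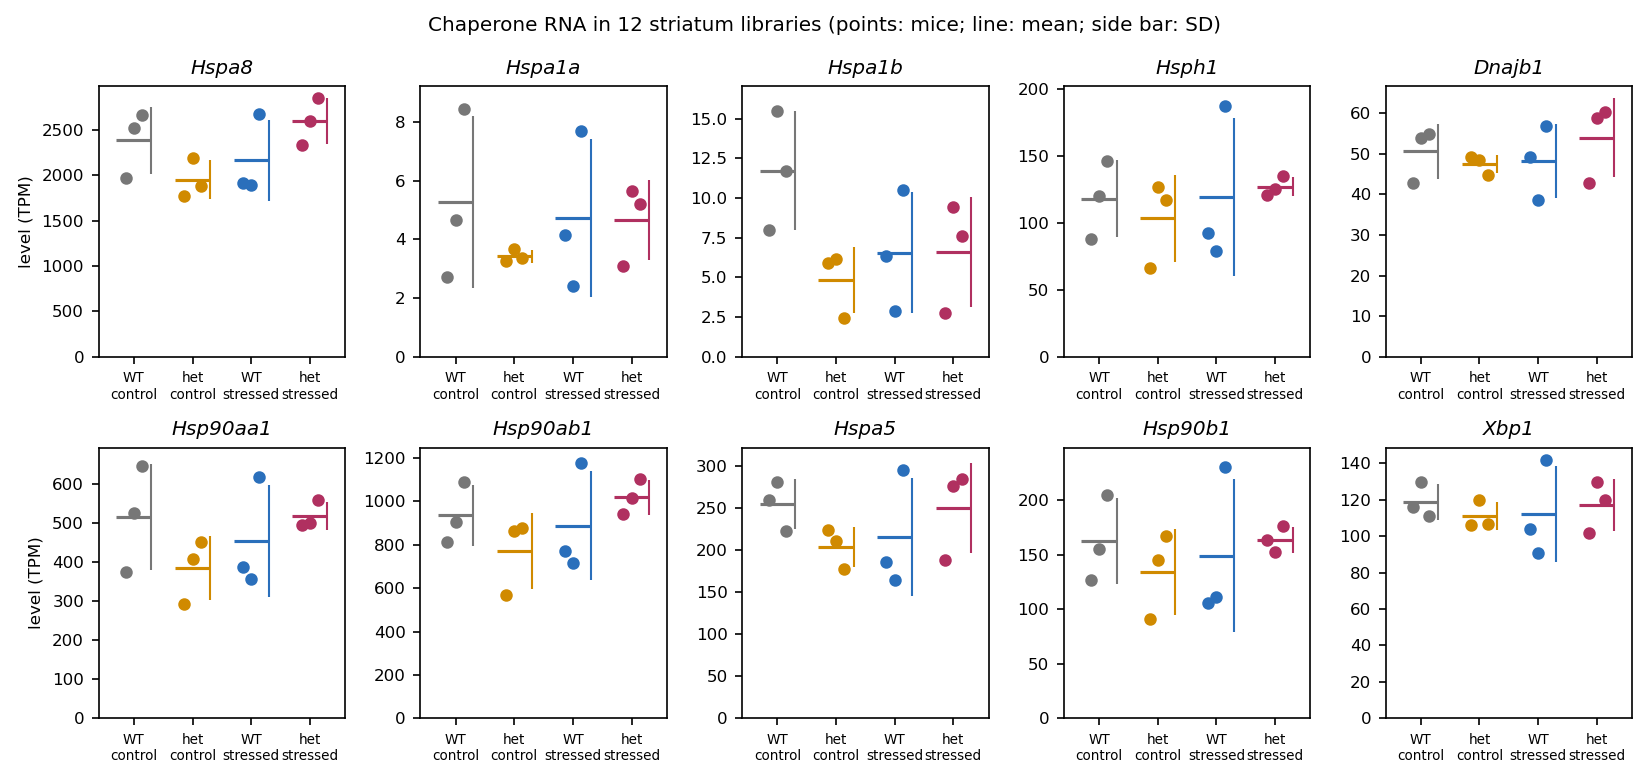
Level of each gene in TPM (vertical axes from 0) in 3 mice of each of the 4 groups; points are single libraries, horizontal lines group means and side bars the SD. Hspa1b stands out by its spread, from 2.47 to 15.5 TPM, and in each of the 4 comparisons at least 7 of the 10 genes have overlapping points.

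Variation between libraries, measured on log2 CPM (counts scaled to a common library size, not divided by length), was largest for Hspa1b. Its highest library held 7.17 times the CPM of its lowest, and its SD of 0.86 (log2) was larger than that of 97.1% of the 15955 genes tested. Hspa1a (SD 0.44, above 75.5% of genes) and Hspa5 (0.34, above 58.4%) came next. Hsp90ab1 was the steadiest, with an SD of 0.12 that exceeded only 7.03% of genes, against a median SD of 0.30 over all genes tested. The remaining 6 members had SDs of 0.17 to 0.23, below that median.

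The first comparison asked how het and wild-type mice differed without prenatal stress. Of the 10 genes 9 were lower in het controls, by a median of -0.19 (log2 fold change), while 49.3% of all tested genes were lower and their median was 0.00. None was called by edgeR's quasi-likelihood test at an adjusted p of 0.05, where 0.00627% of all tested genes (1 gene) were called, and none had an unadjusted p under 0.05. DESeq2 and limma on log2(TPM + 1) also called 0 of the 10. In limma's voom fit with sample weights 1 of the 10 was called, Hsp90aa1 (-0.33 ± 0.08 (SE), adjusted p = 0.0387), in a fit that called 6.19% of all genes (988).

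Hspa1b had the largest estimate. Its CPM were 17.4, 28.0 and 16.8 in the wild-type controls and 15.4, 11.2 and 3.91 in the het controls. All 3 het values lay below all 3 wild-type values, with the first het control close to the wild-type range, and this also held in TPM. The log2 fold change was -1.03 ± 0.55 (SE; edgeR, adjusted p = 0.99999), or 0.49-fold with a 95% confidence interval of 0.211 to 1.14. With Hspa1a added, the sum gave -0.80 ± 0.43, and leaving out 1 library at a time moved the Hspa1b estimate between -1.46 and -0.64. Its neighbour Hspa1a overlapped between the groups, with 6.75, 9.99 and 14.5 CPM in wild-type and 9.50, 7.54 and 6.25 CPM in het controls.

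The constitutive and ER members differed by less. Hsp90ab1 was at 1736, 1657 and 1596 CPM in wild-type and 1416, 1516 and 1393 CPM in het controls, without overlap (-0.21 ± 0.13). Hsp90b1 was at 303, 315 and 331 CPM in wild-type and 253, 287 and 298 CPM in het controls, again without overlap (-0.18 ± 0.18). Counted this way, 3 of the 10 genes lay wholly lower in het controls and 0 wholly higher, against 1.95% and 1.44% of all tested genes. In TPM, Hspa1b was the only one of the 3 that remained apart. The summed level of the 8 thalamus markers also lay apart in these groups, at 53.1 to 141 TPM in wild-type and 39.3 to 46.6 TPM in het controls. All 8 were above 0 in every library, and their part in the differences was not tested.

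Hspa5 overlapped in the same comparison, at 554, 520 and 328 CPM in wild-type and 560, 372 and 285 CPM in het controls (-0.20 ± 0.28). The highest Hspa5 values of all 12 libraries came from the first het control and the first wild-type control, the 2 libraries with the lowest length slopes. Xbp1 (-0.02 ± 0.20) and Dnajb1 (0.05 ± 0.20), the J protein that partners HSP70, were nearest to 0. Without the first het control Dnajb1 was at -0.21 and Xbp1 at -0.20, and leaving out single libraries moved Xbp1 between -0.20 and 0.11.

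**Figure D2:**
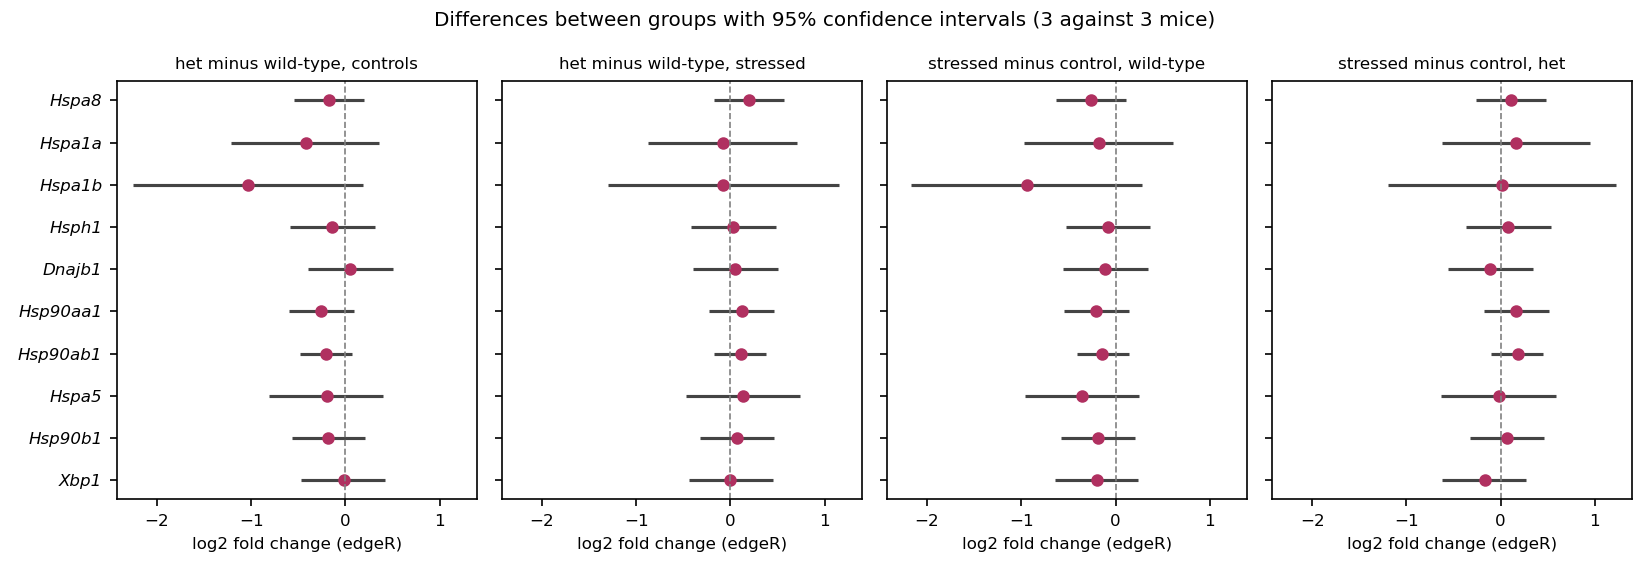
Log2 fold change (horizontal axes, edgeR) of each gene in the 4 comparisons of 3 against 3 mice; points are estimates and lines 95% confidence intervals. Every interval includes 0, and the widest belong to Hspa1b (-2.25 to 0.19 for het minus wild-type controls).

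Among stressed mice the genotype estimates were smaller and mostly above 0. Of the 10 genes 8 were higher in het stressed mice, with a median of 0.06 beside -0.00 for all genes. This majority was not kept without the first het control and the second wild-type stressed library. Hsph1 (-0.15), Dnajb1 (-0.04), Hsp90b1 (-0.04) and Xbp1 (-0.07) were then below 0, as were Hspa1a (-0.36) and Hspa1b (-0.42). Hspa8 (0.18), Hsp90ab1 (0.04), Hspa5 (0.03) and Hsp90aa1 (0.02) stayed above 0. edgeR called none of the 10 genes (0.00627% of all genes called), none had an unadjusted p under 0.05, and DESeq2, limma on TPM and limma's voom called 0. Hspa8, the constitutive HSP70 that also uncoats clathrin vesicles, was at 2272, 2212 and 2254 CPM in wild-type and 2379, 2641 and 2706 CPM in het stressed mice (0.20 ± 0.17). It was the only member of which the groups did not overlap in CPM, a state that 3.08% of all genes reached in the higher and 2.11% in the lower direction, and in TPM it did overlap because the third wild-type stressed library had 2680 TPM. Hspa1b, with 12.3, 5.10 and 15.0 CPM in wild-type and 4.54, 14.6 and 11.5 CPM in het stressed mice, showed no separation (-0.08 ± 0.55). Summed markers of oligodendrocytes (6936 to 9919 TPM in wild-type and 9950 to 11667 TPM in het stressed mice) and of microglia (461 to 524 and 542 to 581 TPM) also separated these groups. All 12 and all 10 of these markers were above 0 in every library, and their part in the differences was not tested.

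Prenatal stress in wild-type mice was the comparison in which the edgeR estimates over all 12 libraries shared a sign. All 10 genes were below 0 in stressed mice, from -0.94 to -0.08 with a median of -0.19, while 51.2% of all tested genes were below 0. Without the first het control and the second wild-type stressed library, Hspa1a and Hsph1 were both at 0.09 and the other members stayed below 0. Leaving out 1 library at a time moved Hspa1a up to 0.13 and Hsph1 up to 0.09. edgeR called 0% of all genes and so none of the 10, no member had an unadjusted p under 0.05, and DESeq2, limma on TPM and limma's voom called none of the 10 either. Both genotype and stress comparisons use the same wild-type controls, so these shared directions are not independent of those among controls.

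Hspa1b again had the largest estimate, from 17.4, 28.0 and 16.8 CPM in wild-type controls to 12.3, 5.10 and 15.0 CPM in wild-type stressed mice, which did not overlap (-0.94 ± 0.55, edgeR, adjusted p = 0.99992). The lowest value came from the library with little Xist. Leaving out single libraries moved the estimate between -1.27 and -0.60, and the sum with Hspa1a was -0.64 ± 0.43. In TPM these groups overlapped.

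Hspa8 did not overlap either, with 2883, 2823 and 2343 CPM in controls and 2272, 2212 and 2254 CPM after stress (-0.26 ± 0.17). Its stressed values were tightly spaced (SD 30.9 CPM) and its controls were not (SD 296 CPM). Counted this way 2 of the 10 genes lay wholly lower and 0 wholly higher, against 3.17% and 2.62% of all genes. In TPM Hspa8 overlapped, with 1967, 2525 and 2667 in controls and 1918, 1898 and 2680 after stress. Counted in TPM, 0 of the 10 genes lay wholly lower and 0 wholly higher. Hspa5 was at 355, 316 and 425 CPM after stress against 554, 520 and 328 CPM in controls, which overlapped (-0.36 ± 0.28). The summed level of the 10 choroid plexus markers also separated these groups, at 305 to 585 TPM in wild-type controls and 7 to 27.1 TPM in wild-type stressed mice. None of these markers was at 0 in all libraries, 6 of the 10 were above 0 in all 12, and their part in the differences was not tested.

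Stress in het mice gave edgeR estimates of mixed sign, from -0.17 to 0.18. Of the 10 genes 7 were higher in stressed het mice, with a median of 0.07 beside 0.00 for all genes. In limma on log2(TPM + 1) all 10 were above 0, from 0.08 (Xbp1) to 0.45 (Hsp90aa1). edgeR called 0% of all genes, no member had an unadjusted p under 0.05, and DESeq2, limma on TPM and limma's voom called 0 members. Both cytosolic HSP90 genes lay apart. Hsp90aa1, the inducible form, was at 732, 684 and 682 CPM in het controls and 761, 753 and 837 CPM in het stressed mice (0.16 ± 0.16). Hsp90ab1 went from 1416, 1516 and 1393 CPM to 1556, 1644 and 1688 CPM (0.18 ± 0.12). These 2 of 10 wholly higher and 0 wholly lower stand beside 3.97% and 2.71% of all genes, and in TPM Hspa8 joined them. Summed cortical neuron markers also separated these groups, at 19.2 to 91.2 TPM in het controls and 123 to 168 TPM in het stressed mice, and so, narrowly, did the astrocyte markers, at 1587 to 1894 and 1895 to 2284 TPM. All 8 and all 10 of these markers were above 0 in every library, and their part in the differences was not tested.

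The series title names an interaction of genotype and prenatal condition, which was tested as the stress difference in het mice minus that in wild-type mice. For 9 of the 10 genes it was above 0 (48.2% of all genes), with a median of 0.33 beside -0.01 for all genes. The interaction uses the same wild-type controls again, so its directions are not independent of those in the comparisons above. edgeR called 0% of all genes, no member had an unadjusted p under 0.05, and DESeq2, limma on TPM and limma's voom called no gene. The smallest p was that of Hsp90ab1 (0.31 ± 0.18, edgeR, adjusted p = 0.99997). Hspa1b had the largest estimate, 0.95 ± 0.78, with an interval of -0.77 to 2.67, and Dnajb1 the smallest, -0.00 ± 0.29. The difference averaged over both conditions was between -0.55 (Hspa1b) and 0.05 (Dnajb1) for genotype, where edgeR called 0.00627% of all genes. Averaged over both genotypes it was between -0.47 (Hspa1b) and 0.02 (Hsp90ab1) for stress, where it called 0%. In both averages no member was called by edgeR, DESeq2 or either limma fit, and no member had an unadjusted p under 0.05.

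Members varied together across the 12 libraries, and which members did so depended on how length was handled. Of 45 pairs 14 had a Pearson r over 0.7 on log2 CPM and 4 were below 0. On this scale each member had an r over 0.7 with 0.207% (Hspa1a) to 10.8% (Xbp1) of the other tested genes. Hspa5 and Xbp1, the chaperone and the factor of the unfolded protein response, had the highest r on log2 CPM at 0.93 (Spearman's rho 0.90). Permutation tests over 12 libraries with 100000 resamples, adjusted over the 45 pairs, gave p = 0.00135 for r (unadjusted 4.00e-05) and p = 0.00765 for rho (unadjusted 0.00017). Without the 2 libraries farthest from the median of Hspa5 the r was 0.87, for deviations from group means it was 0.97, and without the first het control and the second wild-type stressed library it was 0.90. With the length slope removed the r of this pair was 0.90, where the highest of all pairs was 0.91. In log2(TPM + 1) it was 0.89, where the highest was 0.96.

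Hspa5 also varied with Hspa8 (r 0.89, rho 0.87, permutation p = 0.00135 for r and 0.01 for rho after adjustment, unadjusted 6.00e-05 and 0.00057). Its r with Dnajb1 was 0.83 (rho 0.86, adjusted permutation p = 0.00754 and 0.01, unadjusted 0.00067 for both). Without the 2 libraries farthest in Hspa5, r was 0.84 with Hspa8 and 0.83 with Dnajb1, and it was 0.77 without those farthest in Dnajb1. With the length slope removed, the r of Hspa5 was 0.84 with Hspa8 and 0.72 with Dnajb1. In log2(TPM + 1) these were 0.68 and 0.77. Hsph1, the HSP110 that exchanges nucleotides on HSP70, varied with Hsp90b1 (r 0.87, rho 0.80, adjusted permutation p = 0.0051 and 0.0224, unadjusted 0.00034 and 0.00315), at 0.74 without the 2 libraries farthest in Hsph1. The paralogs Hspa1a and Hspa1b had an r of 0.72 (rho 0.68, adjusted permutation p = 0.0301 and 0.0637, unadjusted 0.00803 and 0.0184), at 0.68 without the 2 libraries farthest in Hspa1a and 0.60 without those farthest in Hspa1b.

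Both ER chaperones, Hspa5 and Hsp90b1, share the promoter element shown above but had an r of 0.11 (rho 0.11, adjusted permutation p = 0.856 and 0.857, unadjusted 0.74 and 0.733). Hspa5 was highest in the first het control, at 560 CPM, where Hsp90b1 was at 253 CPM, and only the first 2 wild-type stressed libraries were lower. In log2(TPM + 1), which divides by length, their r was 0.43, and with the length slope of each library removed from log2 CPM it was 0.75.

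**Figure D3:**
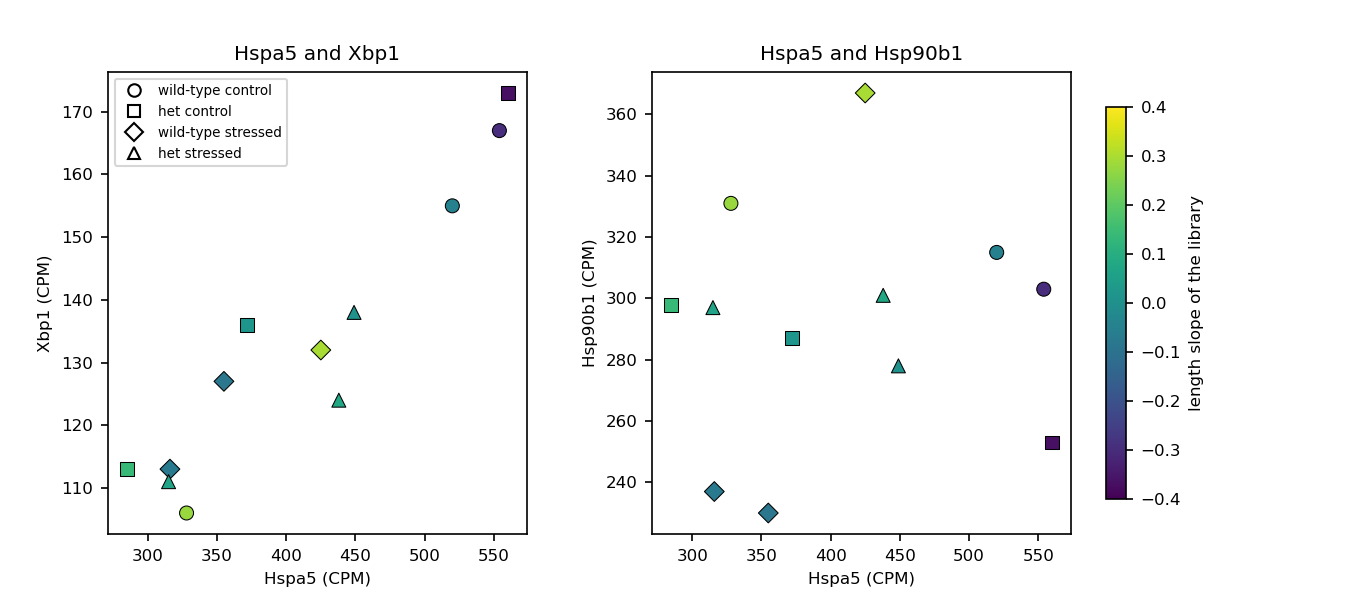
CPM of Hspa5 (horizontal) against Xbp1 (left) and Hsp90b1 (right) in 12 libraries; marker shape gives the group and colour the length slope. Xbp1 is higher where Hspa5 is higher (r 0.93), while Hsp90b1 shows little relation (r 0.11); the library highest in Hspa5, a het control, has the lowest length slope (-0.368).

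As seen in the matrix of pairwise correlations, Hspa5, Xbp1, Hspa8 and Dnajb1 had an r of 0.77 to 0.93 with each other, and Hsph1, Hsp90b1 and Hsp90aa1 of 0.76 to 0.87. Between these sets, which were chosen after their values were seen, r was -0.27 to 0.31 over 12 pairs. With the length slope removed, the 12 pairs had an r of 0.22 to 0.91, no pair of the 45 was below 0 and 24 were over 0.7. In log2(TPM + 1) 23 pairs were over 0.7 and none was below 0. No share over all tested genes is given for these 2 scales, so the counts of 24 and 23 are not set against other genes. The sets also differed in their relation to the slope. Xbp1 had an r of -0.74 with it (rho -0.65, permutation p = 0.0593 for r and 0.113 for rho after adjustment over the 10 genes, unadjusted 0.00593 and 0.025), and -0.37 without the 2 libraries farthest in slope, so that this relation rests on those libraries. Hsp90b1 had an r of 0.62 (rho 0.62, adjusted permutation p = 0.0698 and 0.113, unadjusted 0.0312 and 0.0339), and 0.82 without them. Neither passed the threshold of 0.05 after adjustment, and the smallest adjusted p for r among the 10 genes was that of Xbp1.

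**Figure D4:**
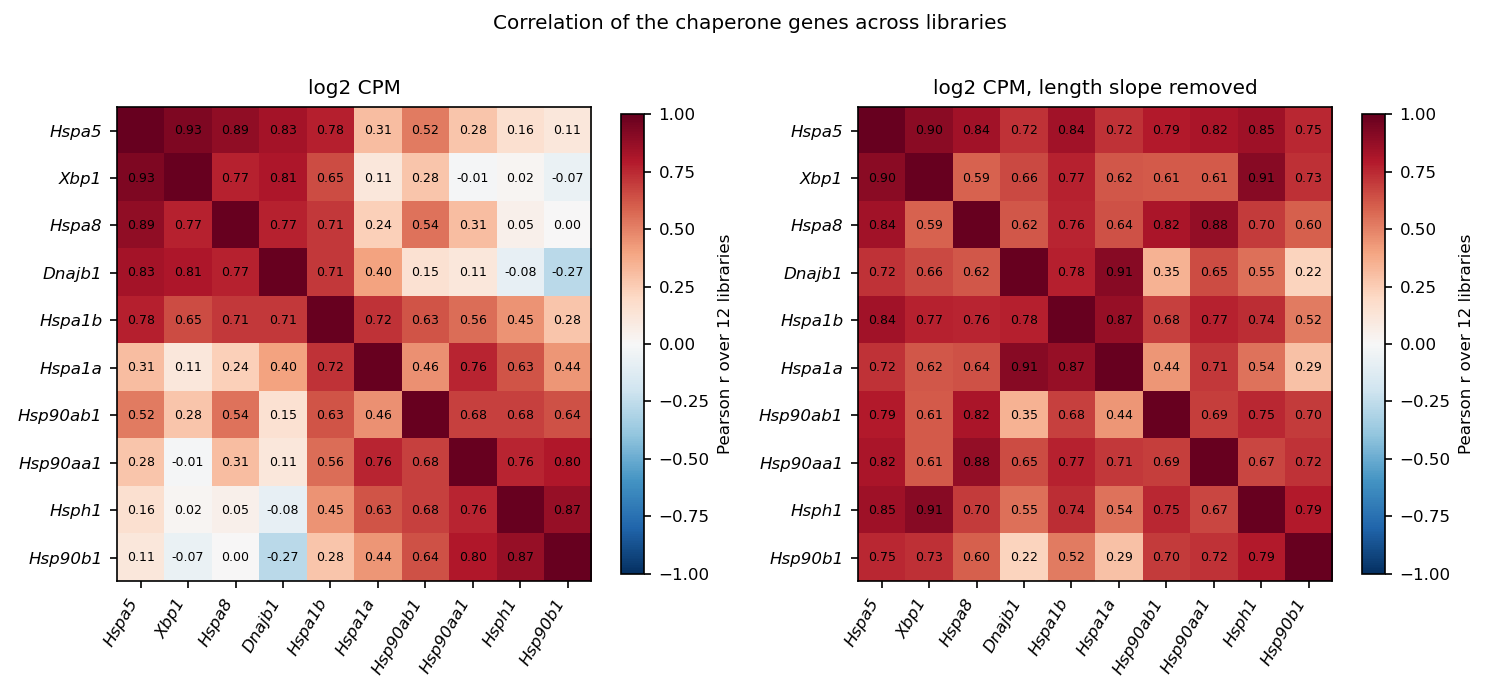
Pearson r of each pair of the 10 genes over 12 libraries, on log2 CPM (left) and after the length slope of each library was removed (right); red is positive and blue negative. On the left the block of Hspa5, Xbp1, Hspa8 and Dnajb1 stands apart from Hsp90aa1, Hsph1 and Hsp90b1, and on the right all 45 values are above 0.

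The genes most like 3 of the members across the 12 libraries are given as a description over 15945 other tested genes. For Hspa1b they were Chordc1, an HSP90 co-chaperone (r 0.85), Pdia4, an ER disulfide isomerase (0.85), and Plod2, a collagen lysyl hydroxylase (0.82). For Hspa5 they were the integrin gene Itga10 (0.95, at only 0.35 to 1.02 TPM), the transcription factor gene Nfil3 (0.94) and the ER disulfide isomerase gene Pdia3 (0.93), and Calr, the ER lectin chaperone calreticulin, came next (0.92). For Hspa8 they were Fam114a2 (0.91), the histone demethylase gene Kdm1a (0.91) and the ubiquitin ligase gene Herc4 (0.90). Of 18 further ER chaperones and folding enzymes, 10 had an r over 0.7 with Hspa5 (median 0.74) and 3 with Hsp90b1 (median 0.10). Of all other tested genes 2.96% and 3.6% had an r over 0.7, with medians of -0.01 and 0.01. These values are on log2 CPM, where Hspa5 and Hsp90b1 had an r of -0.59 and 0.62 with the length slope. No such count with the slope removed is given here.

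A wider list of 98 tested genes covered other HSP70, HSP90 and J protein genes, small heat shock proteins, chaperonins, heat shock factors, ER folding enzymes, ER-associated degradation and the sensors of the unfolded protein response. edgeR called none of them in any of the 7 comparisons, and 0 or 1 gene per comparison had an unadjusted p under 0.05. In wild-type mice 74 of 98 were lower after stress (median -0.11), against 51.2% of all genes (median -0.01). All 10 further HSP90 genes and co-chaperones (median -0.18), all 10 chaperonins (-0.13) and 15 of 18 ER folding enzymes (-0.17) were below 0 there. Other groups were less one-sided: 8 of 11 genes of ER-associated degradation (median -0.14), 4 of 6 small heat shock proteins (-0.16), 5 of 7 HSP70 helper factors (-0.08), 6 of 8 further HSP70 and HSP110 genes (-0.05), 3 of 4 heat shock factors (-0.06), 6 of 10 cytosolic J proteins (-0.03) and 7 of 14 unfolded protein sensors and factors (-0.00) were below 0. Among controls 66 of 98 were lower in het mice (median -0.06), against 49.3% of all genes (median 0.00). The interaction was above 0 for 71 of 98 (median 0.09), against 48.2% of all genes (median -0.01). These comparisons all use the same wild-type controls, so their directions are not independent of each other.

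Cryab, the small heat shock protein alpha-B crystallin, which is abundant in oligodendrocytes, had the smallest p of the wider list. It was at 190, 252 and 209 CPM in wild-type controls, 144, 167 and 125 CPM in wild-type stressed, 162, 182 and 141 CPM in het controls and 159, 175 and 129 CPM in het stressed mice. In CPM the wild-type controls lay above every library of the other 3 groups. In TPM they lay above the wild-type stressed libraries (220, 257 and 261), but not above the het groups. The first wild-type control, at 268 TPM, was below the second het control, at 309 TPM. The log2 fold change of Cryab with stress in wild-type mice was -0.58 ± 0.18 (edgeR, adjusted p = 0.99992). That of genotype among controls was -0.42 ± 0.18 and the interaction was 0.51 ± 0.25. limma's voom called it in the first (-0.69 ± 0.12, adjusted p = 0.0407) and the second (-0.53 ± 0.13, adjusted p = 0.035), where 43 and 988 genes were called. The 12 oligodendrocyte markers summed to 9260 to 14174 TPM in wild-type controls, 6936 to 9919 TPM in wild-type stressed, 5385 to 11067 TPM in het control and 9950 to 11667 TPM in het stressed libraries. The het stressed sums lay above all wild-type stressed sums and within the wild-type control range. In TPM, the unit of these sums, Cryab was at 285, 323 and 251 in het stressed libraries. Wild-type controls were at 268, 415 and 431 TPM, so these groups overlapped. All 12 oligodendrocyte markers were above 0 in every library, and their part in the Cryab difference was not tested.

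Trib3, a pseudokinase gene raised by the ATF4 branch of the unfolded protein response, was low throughout, at 1.03 to 3.04 CPM. With stress in het mice it was at -0.80 ± 0.35 (edgeR, adjusted p = 0.99995). It went from 1.78, 2.47 and 3.04 CPM to 1.03, 1.67 and 1.48 CPM, which did not overlap. Of all tested genes 2.71% lay wholly lower in this comparison. In TPM the Trib3 groups overlapped, at 0.89, 1.78 and 2.39 in het controls and 0.8, 1.29 and 1.21 in het stressed mice. The Trib3 interaction was -1.11 ± 0.50, opposite in sign to that of 9 of the 10 members. Ahsa2, an HSP90 activator, was at -0.42 ± 0.21 with stress in wild-type mice, and Derl3, of ER-associated degradation, at -0.39 ± 0.22 in het against wild-type controls. St13, an HSP70 helper, was at 0.21 ± 0.12 in het against wild-type stressed mice, and Dnajc6, the J protein auxilin of clathrin uncoating, at 0.26 ± 0.13 with stress in het mice. Averaged over conditions, het minus wild-type was -0.20 ± 0.13 for the ER folding factor gene Creld2 and -0.12 ± 0.08 for the J protein gene Dnajb2. Apart from Cryab, Trib3 and Hspa12b, Mbtps1, Dnajb6 and Chordc1 among controls in limma's voom, no gene of the wider list was called by any of the tools. Those controls are the comparison in which voom called 6 of the 98 genes and 6.19% of all genes, so the share of the list was near that of all genes.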

How the data were processed

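Per the labels' protocols, polyadenylated RNA was copied with random primers (NuGen kit). RSEM and Bowtie with mm9 (NCBIM37) are named in the submitters' processing notes, without versions for RNA. The deposited files give, per the file headers, RSEM expected counts and TPM per gene and the percent of a gene's TPM per transcript, 1 file per library. Expected counts were rounded and tested on all 15955 genes that passed filterByExpr (all 10 members did) with edgeR 4.0.16 (TMM, quasi-likelihood, 4 group means, no replicate block, Benjamini-Hochberg adjustment at 0.05). CPM are counts scaled by TMM library sizes, and log2 CPM has a prior count of 2. R 4.3.3, limma 3.58.1, DESeq2 1.42.0, Python 3.11.15 and scipy 1.17.1 were used. Named are all 10 members, the 2 wider-list genes with the smallest p per comparison, and the 3 genes most correlated with Hspa1b, Hspa5 and Hspa8; Calr was added after its rank was seen. Members and lists were chosen with earlier results of these data known. Of 37289 gene IDs, 32600 had a symbol in the RefSeq and gene name tables; 98 of 99 wider-list genes matched. Scripts were tested on simulated data. Alternatives were DESeq2 size factors, DESeq2, limma-voom with sample weights, limma-trend on log2(TPM + 1), no filter, contrast groups alone, a replicate block, the length slope as a covariate, Hspa1a and Hspa1b summed and each library left out. Leaving out the 2 doubted libraries together was added after seeing the data. The 5hmC tables were not used here, since no annotation of their build was at hand to place regions at genes.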

Additional observations from a re-analysis of the deposited data

How the results depend on the processing

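The count of members called stayed at 0 in all 7 comparisons under the alternatives run, except limma-voom with sample weights, where het against wild-type controls gave 1 (Hsp90aa1); the cause was not tested. The smallest adjusted p of a member in any edgeR alternative was 0.572. The count over all genes moved from 1 to 988 for het against wild-type controls with voom (2 with DESeq2), from 0 to 43 for stress in wild-type mice (12 with DESeq2), from 0 to 14 for stress in het mice, from 0 to 6 for the stress average (3 with DESeq2), from 1 to 3 for genotype among stressed mice with both tools, and from 1 to 10 for the genotype average (4 with the length slope, 3 with TPM, 2 with DESeq2 and without a filter). Of 1496 values of single genes under alternatives, 107 changed sign, 22 of them by more than 1 SE, and none of these 22 was called. With voom, Dnajb1 was at -0.24 among controls and -0.10 in the genotype average, where Hsph1 was at 0.11 and Hsp90b1 at 0.07, and Hsph1 was at -0.23 in the stress average. On log2(TPM + 1), stress in het mice gave 0.17 for Dnajb1, 0.28 for Hspa5 and 0.08 for Xbp1, and the stress average gave 0.13 for Hspa8, 0.04 for Dnajb1, 0.13 for Hsp90aa1 and 0.07 for Hsp90b1. Without both doubted libraries, Dnajb1 was at -0.21 among controls, 0.14 with stress in het mice, -0.12 in the genotype and 0.05 in the stress average, and Hspa5 was at 0.28 with stress in het mice and 0.01 in the stress average. The cause of these sign changes was not tested. Leaving out 1 library at a time gave -0.21 to 0.21 for Dnajb1 and -0.51 to -0.00 for Hspa5 among controls, -0.27 to 0.14 and -0.22 to 0.28 with stress in het mice (the upper values without the first het control), and -0.15 (without the third wild-type stressed library) to 0.09 for Hsph1 in the stress average. The labels do not say that a replicate number marks a shared litter or batch, so the samples share only a number. Deviations from group means of same-numbered libraries correlated at -0.26 to 0.67 (median 0.09, 9 of 18 pairs over 0.1), and those of other numbers at -0.74 to 0.42 (median -0.09, 13 of 36 over 0.1). As a hint from the data, not the design, 8 of 12 libraries correlated best with their own number. The replicate block left the members called at 0 in every comparison and the genes called at 1 for each genotype comparison. The least abundant members were Hspa1a and Hspa1b, at 3.91 to 28 CPM, where depth gives the least precision.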

Other observations

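The deposited percent of each gene's TPM per transcript adds a view that the gene totals lack. Hspa1b is split between a transcript of 2206 nt and one of 2803 nt, and the share of the shorter ranged from 31.5% in the first het control to 79.3% in the second wild-type stressed library. Group means of this share were 51.5% in wild-type control, 39.5% in het control, 58.3% in wild-type stressed and 57.4% in het stressed mice. For Hspa8 the main transcript of 2019 nt held 47.4 to 58.9%, and a model of only 456 nt held 18.6 to 27.3% of the gene's TPM, lowest in the first het control. Hsp90aa1 likewise had 13.9 to 25.0% of its TPM on a model of 325 nt, again lowest in the first het control. Hsp90ab1 (99.2 to 99.8% on 1 transcript) and Hsp90b1 (95.2 to 99.0%) were nearly undivided. For Xbp1 the transcript of 1772 nt held 62.7 to 72.0% and that of 2129 nt 11.3 to 19.5%. These shares are RSEM's estimates for short reads, no test was made on them, and with 1 value per library they carry no error of their own.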
